A study of Gossypium hirsutum with 18 samples.

Results

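Genes of the ethanol branch of fermentation were followed across all groups of a cotton alkali experiment. They were the genes that the deposited table describes as alcohol dehydrogenase 1 (ADH1, cinnamyl alcohol dehydrogenases left out) or as pyruvate decarboxylase (PDC) and whose mean FPKM reached 5 in at least 1 of the 6 groups. FPKM is the fragment number scaled by gene length and library size. Of 70478 genes in the table, 31 carried such a description and 22 met the level, made up of 12 of 16 ADH1 genes and 10 of 15 PDC genes. Their levels chose them, so a member is given a p-value only in comparisons where it reached that level in a group outside the comparison. Everywhere else its values are a description.

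The plants were seedlings of upland cotton (Gossypium hirsutum), grown in soil and then moved to alkali solutions. The 6 groups were SAS roots, AS roots, CK roots, SAS leaves, AS leaves and CK leaves, with 3 RNA-seq libraries each and 18 in all. SAS and AS are the study's codes for its 2 alkali treatments, and CK libraries came from plants labelled as having had no treatment. The protocol names 125 mM NaHCO3, and NaOH at the same pH, each for 12 h, without saying which code stands for which solution. The labels leave unsaid if a group's 3 libraries are from different plants. The p-values therefore reflect only how much these libraries varied, which may be technical.

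Glycolysis ends in pyruvate and needs NAD+. When respiration cannot take up the electrons, pyruvate decarboxylase turns pyruvate into acetaldehyde and alcohol dehydrogenase reduces the acetaldehyde to ethanol, which gives the NAD+ back. In Arabidopsis, ADH1 and PDC genes belong to the core set of genes induced by low oxygen, and roots are the organ in which this route is best known.

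Library totals ran from 46345805 to 66843791 counts. Leaf marker genes, described as light harvesting or as the small chain of ribulose bisphosphate carboxylase, took 0.343% to 1.41% of the counts in leaves. In roots they took 0.00734% to 0.0345%, every leaf library lying above every root library. Within leaves the same markers took 0.343% to 0.700% in SAS, 1.13% to 1.28% in AS and 1.1% to 1.41% in CK. Within roots they took 0.00734% to 0.00941% in SAS, 0.0141% to 0.0209% in AS and 0.0325% to 0.0345% in CK. A list of root marker genes took 0.199% to 0.263% in SAS roots, 0.175% to 0.192% in AS roots and 0.146% to 0.159% in CK roots, and 0.0859% to 0.103% in leaves. Both lists thus set the 3 root groups apart, and their part in the root results was not tested. In bulk tissue, fewer cells of a type and less RNA per cell cannot be told apart.

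The table's enzyme annotation matched the descriptions for 20 of the 22 members. All 12 ADH1 members carry EC 1.1.1.1, and 8 PDC members carry EC 4.1.1.1, the number of pyruvate decarboxylase. Gh_A11G1539 and Gh_D11G3493 are described as a thiamine pyrophosphate dependent pyruvate decarboxylase family, but are annotated K12261 and placed in the peroxisome pathway, which is the entry of 2-hydroxyacyl-CoA lyase. They are kept as members by the description and are left out of PDC sums. Several ADH1 genes stand side by side: 4 members lie between positions 11429152 and 11579755 of chromosome A02 and 3 between 10773826 and 10893464 of D02 (coordinates as deposited, build not given). No source says how reads were assigned that fit neighbouring copies, or both the A and the D copy in this allotetraploid, and single copies are uncertain for that reason.

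In roots these genes were among the most abundant transcripts. The members together took 1.26%, 0.894% and 1.52% of all counts in SAS roots. AS roots had 2.68%, 3.59% and 2.91%, and CK roots 2.98%, 2.90% and 2.75%. The SAS roots lay below every AS and CK root. In leaves the share was 0.0459%, 0.112% and 0.0364% in SAS, 0.0402%, 0.0465% and 0.0388% in AS and 0.0289%, 0.0213% and 0.0287% in CK. In each root library, Gh_A02G0682, Gh_A02G0689, Gh_D02G0730 and Gh_D02G0733 made up 96.4% to 98.0% of the ADH1 counts. Ranked by FPKM among all genes, Gh_A02G0689 stood between places 2 and 4 in CK roots.

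**Figure D1:**
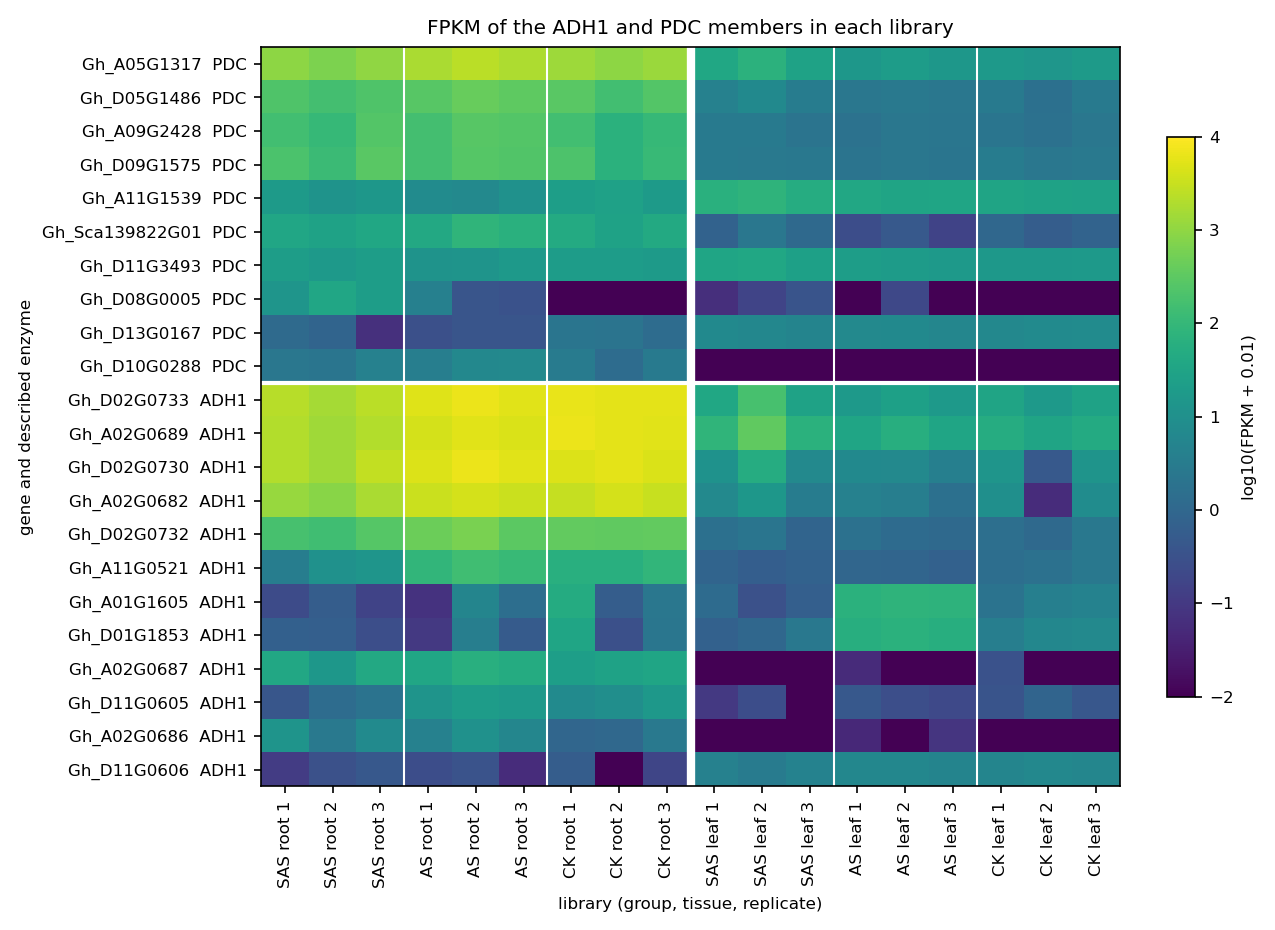
FPKM of the 22 members (rows, PDC above ADH1) in the 18 libraries (columns, by tissue, group and replicate), on a log10 scale after adding 0.01. The root side is brighter for most rows, and Gh_A01G1605 and Gh_D01G1853 are bright in the 3 AS leaf libraries.

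CK roots held far more of these transcripts than CK leaves. With edgeR's quasi-likelihood test and Benjamini-Hochberg adjustment over all 48954 genes tested, 16 of 21 members were higher in CK roots, 2 were lower and 3 did not pass, where a call means an adjusted p under 0.05. Of all genes tested, 66.2% were called, 31.4% as higher in roots and 34.7% as lower. The members' median log2 difference was 5.89, against -0.05 over all genes tested. The level rule weighs on this split, since many members reached 5 FPKM in root groups alone, treated roots included. The 2 lower ones, Gh_D11G0606 and Gh_D13G0167, reached it in leaf groups alone. The counts and the median are therefore a description. Mean FPKM in roots over that in leaves was 225 for Gh_D02G0733, 135 for Gh_A02G0689 and 69.4 for the PDC Gh_A05G1317. Gh_D11G0606 and the PDC Gh_D13G0167 had the opposite pattern, with log2 differences of -4.36 ± 0.78 (SE, adjusted p = 0.000141) and -1.75 ± 0.51 (adjusted p = 0.00688). Both tissues also expressed Gh_A11G1539 (-0.11 ± 0.20, adjusted p = 0.641) and Gh_D11G3493 (0.57 ± 0.15, adjusted p = 0.00271, but 0.34 and adjusted p = 0.0605 when libraries were scaled by their totals alone). Gh_D08G0005 had 0 counts in both and was not compared.

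Root results need 1 remark on scale. The TMM factors that set libraries on a common scale were 1.20 to 1.35 in CK roots, 0.855 to 0.964 in AS roots and 0.844 to 0.899 in SAS roots. FPKM does not use them. With library totals as the only scaling, the median log2 change of all genes moved to -0.49 for AS and -0.59 for SAS against CK, while with TMM it was -0.01 and -0.06. Root changes below are relative to the TMM scale, and FPKM levels can point the other way.

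In AS roots 6 of 9 PDC genes rose and the 4 abundant ADH1 genes did not pass the test. Of 19 members compared between AS and CK roots, 8 were higher, 1 was lower and 10 did not pass, where 38.0% of 39584 genes were called, 21.0% as higher and 17.0% as lower. Of 9 PDC members 6 were higher and 1 lower (Gh_A11G1539, annotated K12261), and of 10 ADH1 members 2 were higher and 0 lower. The median log2 change was 1.17 over the PDC members and 0.60 over the ADH1 members, against -0.01 over all genes. With library totals as the only scaling the split was 4 higher and 3 lower, where 12.3% of all genes were called higher and 38.2% lower.

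Gh_A05G1317, described as pyruvate decarboxylase-2, was the most abundant PDC. It had 1743, 2411 and 1853 FPKM in AS roots, against 1305, 954 and 1248 FPKM in CK roots, and the groups did not overlap. The log2 change was 1.27 ± 0.30 (SE, edgeR adjusted p = 0.00843). Its D-genome counterpart by chromosome and description, Gh_D05G1486, had 282, 407 and 323 FPKM in AS roots, against 298, 155 and 249 FPKM in CK roots. These FPKM values overlap, since the first CK library lies above the first AS library, and the log2 change of 1.02 ± 0.28 (adjusted p = 0.0180) became 0.81 (adjusted p = 0.0733) without AS root library 2 and 0.81 (0.0639) without CK root library 2.

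The other abundant PDC pair moved the same way. Gh_A09G2428 had 164, 269 and 247 FPKM in AS roots, against 151, 68.2 and 102 FPKM in CK roots, all AS values being higher (log2 change 1.58 ± 0.38, adjusted p = 0.00962). Gh_D09G1575 had 163, 260 and 236 FPKM in AS roots, against 208, 68.8 and 108 FPKM in CK roots. The first CK library lay above the first AS library, the log2 change was 1.28 ± 0.42 (adjusted p = 0.0356), and the call was lost without CK root library 2 (1.0, adjusted p = 0.107), CK root library 3 (1.21, 0.0942), AS root library 2 (1.09, 0.115) or AS root library 3 (1.29, 0.0624). A short gene model on an unplaced scaffold, Gh_Sca139822G01, which spans 305 bases, had 41.9, 83.7 and 63.8 FPKM in AS roots, against 46.1, 27.9 and 44.2 FPKM in CK roots, and rose by 1.17 ± 0.29 (adjusted p = 0.0105). CK root library 2 was the lowest CK library for these 5 PDC genes. With library totals as the only scaling, Gh_A05G1317 and Gh_A09G2428 kept their calls, and Gh_D05G1486 (0.53, adjusted p = 0.129), Gh_D09G1575 (0.78, 0.143) and Gh_Sca139822G01 (0.68, 0.0635) lost theirs.

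The 4 abundant ADH1 genes of the A02 and D02 clusters had log2 changes of 0.15 to 0.64 in AS roots, and their difference from the PDC genes was not tested. Gh_A02G0689 had 4002, 5335 and 4494 FPKM in AS roots, against 6516, 5561 and 5454 FPKM in CK roots, so that every AS value was the lower in FPKM. On the TMM scale its log2 change was 0.15 ± 0.29 (adjusted p = 0.721), and with library totals alone it was -0.34. Gh_D02G0733 had 5046, 6632 and 5520 FPKM in AS roots, against 6250, 5715 and 5752 FPKM in CK roots. Its groups overlapped in FPKM, and its log2 change was 0.44 ± 0.30 (adjusted p = 0.263). Gh_A02G0682 had 3258, 4139 and 3325 FPKM in AS roots, against 2954, 4028 and 3151 FPKM in CK roots, and Gh_D02G0730 had 4919, 6580 and 5448 FPKM in AS roots, against 4759, 5706 and 4688 FPKM in CK roots, both overlapping in FPKM. Their log2 changes were 0.56 ± 0.34 (adjusted p = 0.220) and 0.64 ± 0.34 (adjusted p = 0.167). Scaled by TMM, every AS root lay above every CK root in Gh_A02G0682, Gh_D02G0730 and Gh_D02G0733, and the groups of Gh_A02G0689 overlapped.

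The 2 ADH1 genes that rose in AS roots were weak members of the A02 cluster. Gh_A02G0686 had 4.28, 10.9 and 5.54 FPKM in AS roots, against 0.966, 1.07 and 2.65 FPKM in CK roots, without overlap (log2 change 2.61 ± 0.64, adjusted p = 0.0105). It ends beside Gh_A02G0687, which had 36.2, 60.1 and 48.8 FPKM in AS roots, against 22.7, 28.4 and 33.5 FPKM in CK roots, again without overlap. The log2 change of Gh_A02G0687 was 1.25 ± 0.38 (adjusted p = 0.0257), and its call was lost without AS root library 2 (1.0, adjusted p = 0.0986), CK root library 1 (1.08, 0.0879) or CK root library 2 (1.27, 0.0653), and with library totals alone (0.78, 0.0893).

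In SAS roots 2 of the 4 abundant ADH1 genes fell, and none of the 9 PDC genes passed as lower. Of 20 members compared between SAS and CK roots, 4 were higher, 5 lower and 11 did not pass, where 57.0% of all genes were called, 28.6% as higher and 28.3% as lower. Members were thus called less often than all genes, and their share that was lower is near that of all genes. The 5 that fell were all ADH1 genes (5 of 11, with Gh_A02G0686 higher at 2.80, adjusted p = 0.00440), and of 9 PDC members 3 were higher and 0 lower. The median log2 change was -0.98 over the ADH1 members and 0.35 over the PDC members, against -0.06 over all genes. The difference between the ADH1 and PDC members was not tested. With library totals as the only scaling 1 was higher and 9 were lower, where 18.7% of all genes were called higher and 46.6% lower, so that the share of members that were lower is again near that of all genes.

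Gh_A02G0689 had 1994, 1409 and 2077 FPKM in SAS roots, against 6516, 5561 and 5454 FPKM in CK roots, and Gh_D02G0733 had 2248, 1576 and 2349 FPKM in SAS roots, against 6250, 5715 and 5752 FPKM in CK roots. For both genes every SAS value lay below every CK value. The log2 changes were -1.13 ± 0.29 (adjusted p = 0.00832) and -0.98 ± 0.30 (adjusted p = 0.0181), the second becoming -0.81 (adjusted p = 0.0780) without SAS root library 2. Gh_A02G0682 had 1160, 864 and 1769 FPKM in SAS roots, against 2954, 4028 and 3151 FPKM in CK roots, also without overlap, but its log2 change of -0.87 ± 0.34 missed the threshold (adjusted p = 0.0513). Gh_D02G0730 had 1998, 1412 and 2887 FPKM in SAS roots, below every CK root, and gave -0.72 ± 0.34 (adjusted p = 0.0992). With library totals alone both passed, at -1.41 (adjusted p = 0.00256) and -1.26 (adjusted p = 0.00496).

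The 3 PDC members that rose in SAS roots were Gh_A09G2428, Gh_D09G1575 and Gh_D11G3493. Gh_A09G2428 had 150, 106 and 246 FPKM in SAS roots, against 151, 68.2 and 102 FPKM in CK roots (log2 change 1.21 ± 0.38, adjusted p = 0.0195), and Gh_D09G1575 had 199, 125 and 287 FPKM in SAS roots, against 208, 68.8 and 108 FPKM in CK roots (1.24 ± 0.42, adjusted p = 0.0278). Both overlap in FPKM and lost their calls with library totals alone (0.65 and 0.67, adjusted p = 0.141 and 0.177), without SAS root library 3 (0.79 and 0.88, adjusted p = 0.0871 and 0.113) and without CK root library 2 (0.99 and 0.95, adjusted p = 0.0702 and 0.0871). Gh_D09G1575 lost it without CK root library 3 as well (1.17, adjusted p = 0.0785). Gh_A05G1317 had 947, 665 and 1016 FPKM in SAS roots and did not pass against CK roots (0.13 ± 0.29, adjusted p = 0.721).

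**Figure D2:**
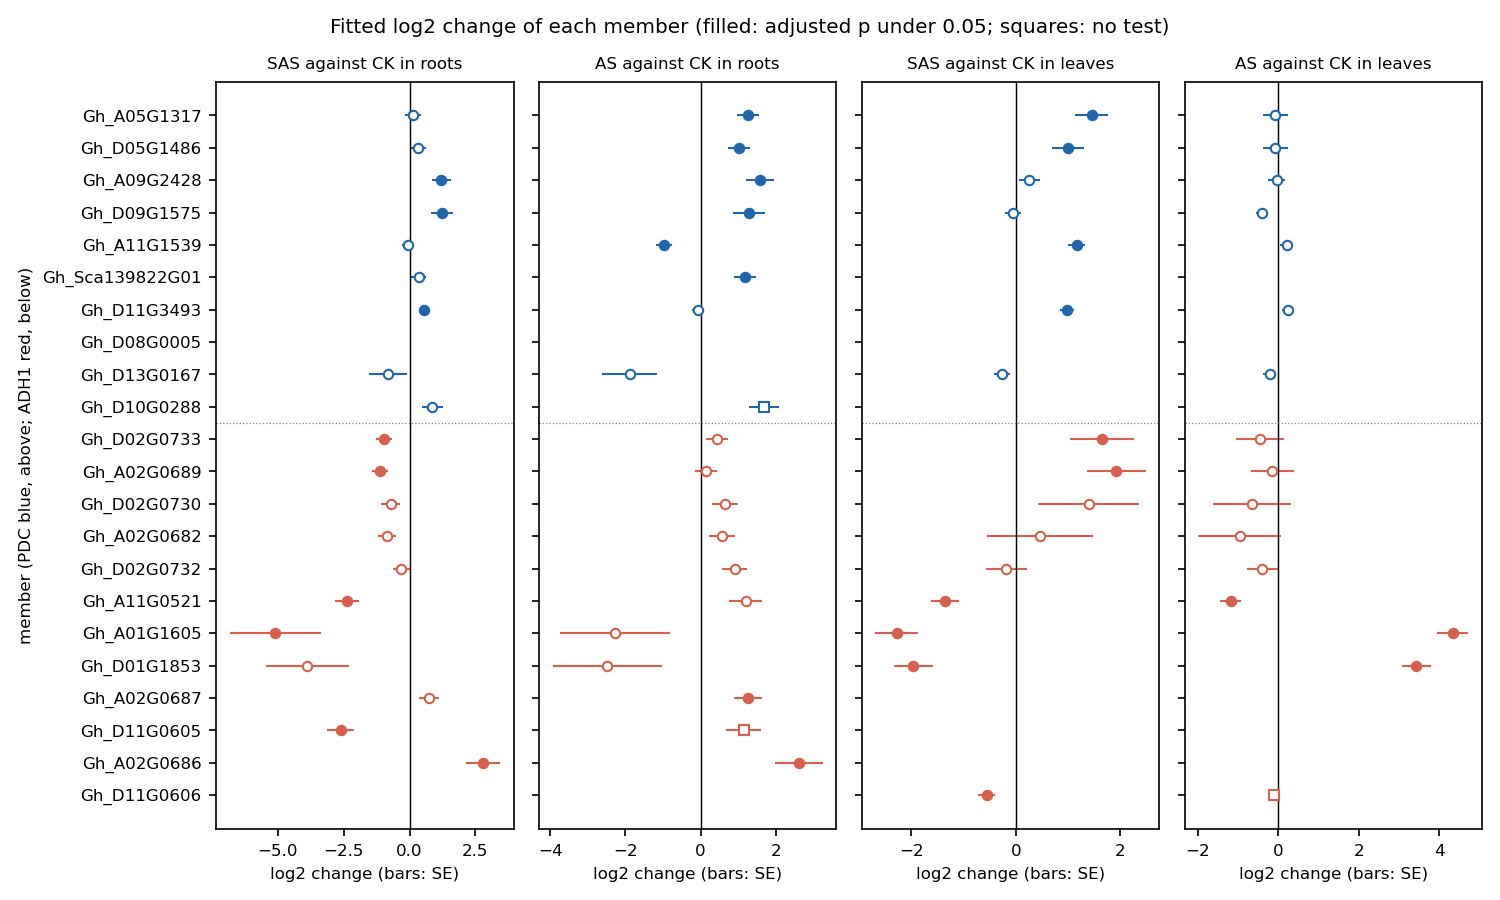
Fitted log2 change of each member against CK (x axis, TMM scale, bars are SE) in 4 comparisons, with PDC in blue above and ADH1 in red below, filled symbols for calls and squares for values without a test. Rows without a symbol were not fitted there or, as Gh_D08G0005 in roots, had 0 counts in CK; in AS roots most PDC symbols lie right of 0, and in SAS roots most ADH1 symbols lie left of it.

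Set against each other in roots, the treatments differed in 11 members. Between SAS and AS roots, 2 of 18 members were higher, 9 lower and 7 did not pass, where 39.7% of all genes were called, 20.7% as higher and 19.0% as lower. Of 10 ADH1 members 7 were lower and 0 higher, and of 8 PDC members 2 were lower and 2 higher. The 2 higher ones were Gh_A11G1539 (0.92, adjusted p = 0.00924) and Gh_D11G3493 (0.64, adjusted p = 0.00952), both annotated K12261, and no PDC member with EC 4.1.1.1 passed as higher among those tested. Gh_D08G0005 and Gh_D10G0288 were not tested here, since they reached the level only in these groups. Gh_D08G0005 had 13.5, 34.8 and 21.6 FPKM in SAS roots, against 4.0, 0.378 and 0.307 FPKM in AS roots. Gh_D10G0288 had 2.39, 2.14 and 4.39 FPKM in SAS roots, against 3.69, 6.35 and 6.53 FPKM in AS roots. The log2 differences of the 4 abundant ADH1 genes ran from -1.43 ± 0.35 (Gh_A02G0682, adjusted p = 0.00933) to -1.28 ± 0.29 (Gh_A02G0689, adjusted p = 0.00758), and that of Gh_D02G0730 became -1.14 (adjusted p = 0.0509) without SAS root library 2. Gh_D02G0732, with 178, 144 and 257 FPKM in SAS roots and 451, 629 and 307 FPKM in AS roots, gave -1.21 ± 0.33 (adjusted p = 0.0160), and -0.86 (adjusted p = 0.0663) without AS root library 2 and -1.03 (0.0612) without SAS root library 2. Gh_A05G1317 gave -1.14 ± 0.30 (adjusted p = 0.0131), and -0.92 (adjusted p = 0.0534) and -0.97 (0.0559) without the same libraries. Gh_Sca139822G01 was lower as well, at -0.82 ± 0.29 (adjusted p = 0.0445), a call that was lost without any 1 of 7 root libraries, AS root library 2 moving it most (-0.50, adjusted p = 0.194).

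The balance of the 2 enzymes can be read within a library, where scaling cancels. The summed FPKM of ADH1 members over that of the 8 PDC members with EC 4.1.1.1 was 4.85, 4.84 and 5.13 in SAS roots. It was 7.42, 6.85 and 7.06 in AS roots, against 10.4, 16.8 and 11.1 in CK roots. The 3 root groups did not overlap, with SAS lowest and CK highest. In leaves the ratio was 2.74, 6.30 and 2.64 in SAS, 6.89, 7.08 and 7.20 in AS and 3.58, 2.55 and 3.39 in CK, where the AS leaves lay above all others. These ratios sum genes chosen with results known and carry no test.

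**Figure D3:**
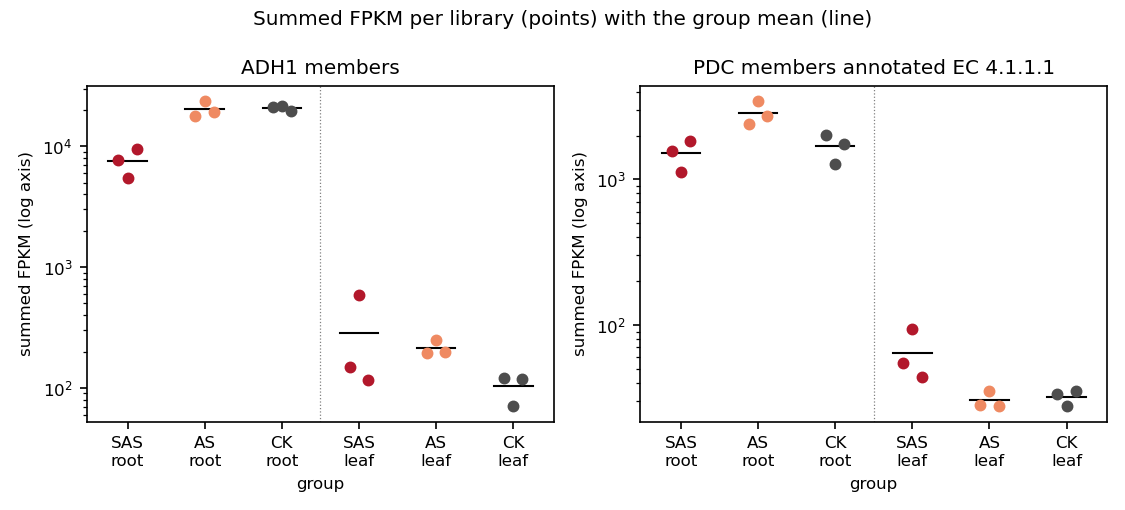
Summed FPKM (log axis) of the ADH1 members (left) and of the PDC members annotated EC 4.1.1.1 (right) in each library, by group, with the group mean as a line. The ADH1 sum is 5437 to 9405 FPKM in SAS roots, below the AS and CK roots, and SAS leaf library 2 stands above the other leaves in both panels.

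The neighbours on chromosome 11 divided between tissues. Gh_A11G0521 had 3.51, 10.8 and 13.4 FPKM in SAS roots, 89.9, 146 and 111 FPKM in AS roots and 61.5, 59.8 and 90.3 FPKM in CK roots. Every SAS root lay below every other root, with log2 changes of -2.38 ± 0.46 against CK (adjusted p = 0.00163) and -3.58 ± 0.48 against AS (adjusted p = 0.000611). Gh_D11G0605, on D11, followed it with 0.397, 1.28 and 1.91 FPKM in SAS roots, 13.0, 21.1 and 17.4 FPKM in AS roots and 7.51, 9.07 and 15.7 FPKM in CK roots (-2.62 ± 0.51 against CK, adjusted p = 0.00181, and -3.76 ± 0.54 against AS, adjusted p = 0.000767). Against CK, Gh_A11G0521 was 1.19 ± 0.44 in AS roots (adjusted p = 0.0566).

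Gh_D11G0606 lies next to Gh_D11G0605 and was a leaf gene. It had 4.26, 3.09 and 4.68 FPKM in SAS leaves, 6.0, 5.83 and 5.16 FPKM in AS leaves and 5.44, 6.21 and 5.69 FPKM in CK leaves, while no root library passed 0.564 FPKM. The SAS leaves lay below all other leaves, with a log2 change of -0.56 ± 0.15 against CK (adjusted p = 0.0121). Against AS leaves it was -0.45 ± 0.15 (adjusted p = 0.0395), a call lost without any 1 of the AS or SAS leaf libraries other than SAS library 3, at adjusted p = 0.0563 to 0.111. Gh_A11G0521, by contrast, was near the detection filter in leaves, with 0.865, 0.605 and 0.757 FPKM in SAS, 0.954, 0.894 and 0.729 FPKM in AS and 1.45, 1.71 and 2.46 FPKM in CK. It fell in both treatments against CK, by 1.36 on the log2 scale in SAS leaves (adjusted p = 0.00202) and by 1.19 in AS leaves (adjusted p = 0.0126, and 0.0539 without CK leaf library 3 and 0.0552 without AS leaf library 3).

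AS leaves differed from all other groups in 1 pair of ADH1 genes. Between AS and CK leaves 2 of 15 members were higher, 1 was lower and 12 did not pass, where 20.7% of 44761 genes were called, 11.5% as higher and 9.21% as lower, so that these counts are near the shares over all genes. The 2 were Gh_A01G1605, on A01 from 93725101 to 93726944, and Gh_D01G1853, on D01 from 56330537 to 56332369. Gh_A01G1605 had 1.23, 0.300 and 0.645 FPKM in SAS leaves, 67.0, 78.6 and 77.3 FPKM in AS leaves and 1.88, 3.88 and 4.67 FPKM in CK leaves. Gh_D01G1853 had 0.719, 0.993 and 2.51 FPKM in SAS leaves, 56.5, 69.4 and 57.9 FPKM in AS leaves and 3.64, 5.86 and 6.66 FPKM in CK leaves. For both genes the 3 groups did not overlap, with AS highest and SAS lowest.

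Against CK leaves, the log2 change of Gh_A01G1605 was 4.34 ± 0.39 in AS leaves (adjusted p = 0.000304) and -2.27 ± 0.41 in SAS leaves (adjusted p = 0.00127). Gh_D01G1853 changed by 3.43 ± 0.37 (adjusted p = 0.000631) and -1.96 ± 0.38 (adjusted p = 0.00178). Both genes have a p-value for AS against CK leaves because CK roots, outside that comparison, averaged 17.3 FPKM for Gh_A01G1605 and 12.3 FPKM for Gh_D01G1853. Those means rest on CK root library 1, without which they were 1.51 and 1.28 FPKM, and the AS leaf changes would then be a description without a test. In AS leaves the pair took up so much of the ADH1 signal that the 4 genes abundant in roots made up 31.7%, 37.1% and 28.2% of ADH1 counts, against 87.7%, 71.6% and 80.9% in CK leaves. Of the PDC members in AS leaves, 0 of 7 passed in either direction with edgeR, and 0 of 7 were called by DESeq2. In Gh_A11G1539 and Gh_D11G3493 every AS leaf lay above every CK leaf in FPKM, with 39.9, 32.6 and 33.5 FPKM in AS and 31.2, 28.4 and 27.8 FPKM in CK for Gh_A11G1539, and 21.9, 19.3 and 17.9 FPKM in AS and 15.4, 15.9 and 16.4 FPKM in CK for Gh_D11G3493. Scaled by TMM, the groups of Gh_A11G1539 overlapped. The log2 changes were 0.21 ± 0.17 (adjusted p = 0.417) and 0.23 ± 0.14 (adjusted p = 0.269). Gh_D09G1575 gave -0.41 ± 0.16 (unadjusted p = 0.0277, the only 1 of the 7 under 0.05, and adjusted p = 0.0960).

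In roots the same pair was high in a single library. Gh_A01G1605 had 0.228, 0.569 and 0.155 FPKM in SAS roots, 0.0662, 5.45 and 1.43 FPKM in AS roots and 48.9, 0.593 and 2.43 FPKM in CK roots. CK root library 1 stood far above the other 8 root libraries, and Gh_D01G1853 had 34.4 FPKM in it, against 0.284 and 2.28 FPKM in the other CK roots. The fall of Gh_A01G1605 in SAS roots (log2 -5.10 ± 1.73, adjusted p = 0.0286) rested on that library, and without it the change was -1.74 (adjusted p = 0.278). The call was also lost without any 1 SAS root library, at adjusted p = 0.0580 to 0.0876, and under the replicate block (adjusted p = 0.0908).

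**Figure D4:**
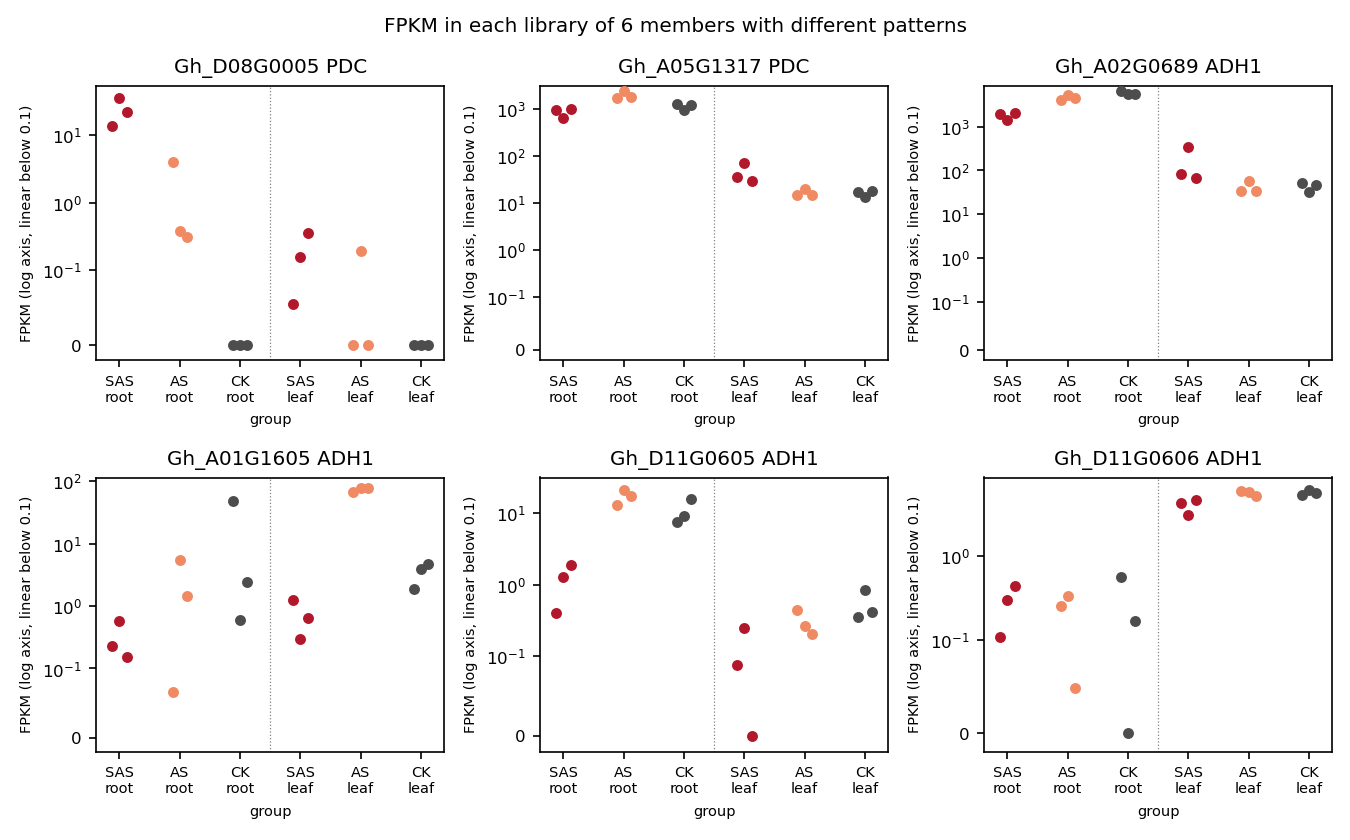
FPKM in every library (points, log axis above 0.1 and linear below) of 6 members chosen after their values were seen to show different patterns, by group. Gh_A01G1605 is at 67.0 to 78.6 FPKM in the AS leaves, Gh_D08G0005 is at 0 in all CK libraries, and Gh_D11G0605 and Gh_D11G0606 lie on opposite tissue sides.

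In SAS leaves members moved in both directions, and several calls rested on 1 library. Of 16 members compared between SAS and CK leaves, 6 were higher, 4 lower and 6 did not pass, where 53.2% of all genes were called, 27.2% as higher and 26.0% as lower. The share of members that were lower is near that of all genes. All 4 that fell were ADH1 genes, of which 2 of 9 were higher and 4 lower (median log2 change -0.18). Of the 4 PDC members that were higher, Gh_A05G1317 and Gh_D05G1486 carry EC 4.1.1.1, and Gh_A11G1539 and Gh_D11G3493 are the genes annotated K12261. Gh_A02G0689 had 85.2, 340 and 66.7 FPKM in SAS leaves, against 50.9, 32.5 and 46.3 FPKM in CK leaves, and Gh_D02G0733 had 37.9, 180 and 29.4 FPKM in SAS leaves, against 31.8, 17.6 and 29.4 FPKM in CK leaves. In both genes SAS library 2 lay above every other leaf library, and the groups of Gh_D02G0733 overlapped. Their log2 changes were 1.93 ± 0.56 (adjusted p = 0.0153) and 1.66 ± 0.61 (adjusted p = 0.0419). Without SAS leaf library 2 they were 0.77 (adjusted p = 0.0314) and 0.31 (adjusted p = 0.350). The call of Gh_A02G0689 was also lost without CK leaf library 2 (1.78, adjusted p = 0.0608), and that of Gh_D02G0733 without any 1 CK or AS leaf library, at adjusted p = 0.0518 to 0.131.

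The PDC Gh_A05G1317 rose in SAS leaves with less dependence on that library. It had 36.9, 73.2 and 29.2 FPKM in SAS leaves, against 17.8, 14.0 and 18.7 FPKM in CK leaves, without overlap (log2 change 1.45 ± 0.31, adjusted p = 0.00334, and 0.93 and 0.00177 without SAS leaf library 2). Gh_D05G1486 had 4.38, 7.09 and 3.26 FPKM in SAS leaves, against 2.91, 1.65 and 2.76 FPKM in CK leaves (0.99 ± 0.30, adjusted p = 0.0193, becoming 0.60 and 0.0738 without SAS leaf library 2, and 0.79 and 0.0706 without CK leaf library 2). CK leaf library 2 was low in 2 ADH1 genes: Gh_A02G0682 had 4 counts there, against 637 and 674 in the other CK leaves, and Gh_D02G0730 had 37, against 880 and 1017. Leaf marker genes were lower in all SAS leaves than in CK leaves, as given above, and their part in these results was not tested.

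Between SAS and AS leaves, 6 of 16 members were higher, 3 lower and 7 did not pass, where 40.0% of all genes were called, 20.7% as higher and 19.3% as lower. The largest differences among the members were those of Gh_A01G1605 (-6.61 ± 0.45, adjusted p = 0.000152) and Gh_D01G1853 (-5.39 ± 0.41, adjusted p = 0.000188), and that of Gh_A01G1605 again has a p-value only because of CK root library 1. Gh_A05G1317 was higher in SAS leaves by 1.53 ± 0.31 (adjusted p = 0.00467), and by 0.98 (0.00301) without SAS leaf library 2. Gh_A02G0689 and Gh_D02G0733 were higher by 2.07 ± 0.56 (adjusted p = 0.0160) and 2.11 ± 0.62 (adjusted p = 0.0221), and by 0.89 (adjusted p = 0.0252) and 0.74 (adjusted p = 0.0546) without SAS leaf library 2. Gh_D05G1486 was higher by 1.07 ± 0.30 (adjusted p = 0.0194), and by 0.65 (adjusted p = 0.0730) without that library. These 3 calls were also lost without AS leaf library 1 or 3, at adjusted p = 0.0557 to 0.0742.

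The 2 members annotated to the peroxisome rose in SAS leaves, as did Gh_A05G1317 and Gh_D05G1486, and 1 of them fell in AS roots. Gh_A11G1539 had 18.8, 11.9 and 14.8 FPKM in SAS roots, 7.69, 6.61 and 11.1 FPKM in AS roots and 23.3, 27.2 and 18.2 FPKM in CK roots. It was the 1 member that fell in AS roots (-0.97 ± 0.22, adjusted p = 0.00752), and all AS roots lay below all other roots. In leaves it had 64.1, 81.1 and 53.3 FPKM in SAS, above all AS and CK leaves, and it rose in SAS leaves by 1.16 ± 0.17 (adjusted p = 0.000387). Gh_D11G3493 rose there as well (0.98 ± 0.14, adjusted p = 0.000373), with 33.1, 36.6 and 26.1 FPKM in SAS leaves, against 15.4, 15.9 and 16.4 FPKM in CK leaves, and neither gene's groups overlapped. In SAS roots its log2 change of 0.56 ± 0.16 (adjusted p = 0.0113) did not pass with library totals alone (0.03, adjusted p = 0.895).

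Gh_D08G0005, a PDC with EC 4.1.1.1, was detected almost only under treatment. It had 1421, 3891 and 2418 counts in SAS roots (13.5, 34.8 and 21.6 FPKM), 500, 51 and 33 counts in AS roots (4.0, 0.378 and 0.307 FPKM) and 0 counts in all CK roots. Against 3 counts in each CK root library, a limit for counting error only, it was at least 74.2-fold higher in AS roots (edgeR adjusted p = 0.00654), where library 1 held most of the counts, and at least 16.6-fold higher without that library. The bound for SAS roots, at least 1157-fold, is a description, since SAS roots were the group that made it a member. SAS leaves had 7, 17 and 41 counts, AS leaves 0, 23 and 0, and CK leaves 0 in all libraries. The like-described Gh_A08G2557 stayed under the level with 2.09, 5.34 and 3.43 FPKM in SAS roots, 0.755, 0.374 and 0.138 FPKM in AS roots and 0 counts in CK roots.

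At the threshold, the lowest members were Gh_D10G0288, with a mean of 5.52 FPKM in AS roots, and Gh_D11G0606, with 5.78 FPKM in CK leaves. The 9 genes left out came closest with Gh_A08G2557 at 3.62 FPKM and Gh_Sca104120G01 at 3.51 FPKM, both in SAS roots. Of these 9, 2 had 0 counts in every library. Gh_D10G0288 had 2.39, 2.14 and 4.39 FPKM in SAS roots, 3.69, 6.35 and 6.53 FPKM in AS roots and 3.20, 1.30 and 2.73 FPKM in CK roots, and 0 counts in all leaves. The leaf-type PDC Gh_D13G0167 had 5.22 to 6.85 FPKM in SAS leaves, 5.51 to 6.99 FPKM in AS leaves and 6.36 to 7.71 FPKM in CK leaves, with overlapping groups, and was not called between leaf groups. In roots it was lower in AS than in CK by an amount that did not pass with edgeR on all libraries (-1.89 ± 0.74, adjusted p = 0.0682). It passed there with library totals alone (-2.37, adjusted p = 0.0257), with DESeq2 (-1.88, 0.0357) and without SAS root library 3 (-1.89, 0.00462), and the difference between SAS and AS roots passed without that library (1.61, 0.0146) but not with it (1.07, 0.276).

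The responses of roots and leaves were compared in 1 model. For the response to AS, 6 of 13 members were higher in roots, 1 was lower and 6 did not pass, where 35.2% of 35697 genes were called, 18.5% as higher and 16.7% as lower. The 4 abundant PDC genes Gh_A05G1317, Gh_D05G1486, Gh_A09G2428 and Gh_D09G1575 were among the 6. With library totals as the only scaling 1 was higher and 3 were lower, where 8.01% of all genes were called higher and 41.8% lower. The 1 was the ADH1 gene Gh_A11G0521 (1.86, adjusted p = 0.00767), and the calls of the 4 PDC genes and of Gh_D02G0732 were lost. For the response to SAS, 2 of 15 were higher in roots, 3 lower and 10 did not pass, where 48.7% of all genes were called, 24.6% as higher and 24.1% as lower, and with library totals alone 0 were higher and 7 lower, where 12.6% of all genes were called higher and 49.1% lower. That share of members that were lower is near the share of all genes. The difference was -2.81 ± 0.69 for Gh_A02G0689 (adjusted p = 0.00332) and -1.68 (adjusted p = 0.00462) without SAS leaf library 2. For Gh_A01G1605 and Gh_D01G1853 the root response to AS minus the leaf response was -6.56 and -5.85, given without a test because no group outside that contrast qualified them. Without CK root library 1 they were -3.19 and -2.74.

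The rest of the pathway was described by lists of genes picked by description. Upstream of pyruvate, among sucrose synthases, which split sucrose, 7 of 13 were higher and 0 lower in AS roots, and 3 were higher and 3 lower in SAS roots. Over all genes, 21.0% were called higher and 17.0% lower for AS, while SAS had 28.6% higher and 28.3% lower. Among phosphofructokinases, which commit sugar to glycolysis, 12 of 20 were higher and 3 lower in AS roots, and 8 higher and 5 lower in SAS roots. With library totals alone, AS roots had 5 sucrose synthases higher and 1 lower and 6 phosphofructokinases higher and 6 lower, and SAS roots had 3 and 7 of the first list and 4 and 9 of the second. Of all genes, 12.3% were then called higher and 38.2% lower for AS, and 18.7% and 46.6% for SAS. The enolase Gh_D01G2033 reached 1936 FPKM in AS roots, against 574 FPKM in CK roots (log2 change 2.22, adjusted p = 0.00243). In SAS roots it averaged 417 FPKM (0.09, adjusted p = 0.855), while of 10 enolases 0 were higher and 6 lower there. The same 2 treatments gave the phosphoglycerate kinase Gh_D01G0799 log2 changes of 1.87 (adjusted p = 0.00139) in AS roots and 0.0064 (adjusted p = 0.987) in SAS roots.

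Other enzymes of glycolysis moved in both directions, and the shares over all genes are those given for the lists above. In AS roots 3 of 10 enolases were higher and 5 lower, 7 of 19 aldolases were higher and 3 lower, 12 of 40 pyruvate kinases were higher and 6 lower, and 3 of 12 cytosolic glyceraldehyde phosphate dehydrogenases were higher and 3 lower. With library totals alone 2 of these 4 lists had more lower than higher calls in place of the reverse, the aldolases with 4 higher and 8 lower and the pyruvate kinases with 6 and 12. The dehydrogenases then had 2 and 7, and the enolases 3 and 5 as before. In SAS roots 0 enolases were higher and 6 lower (median log2 change -1.06), 3 aldolases were higher and 4 lower, 8 pyruvate kinases were higher and 13 lower, and 0 of the dehydrogenases were higher and 7 lower (median -0.80). With library totals alone these became 0 and 7, 2 and 10, 5 and 20, and 0 and 10. For pyruvate's other fates, 4 of 6 alanine aminotransferases were higher and 1 lower in AS roots, led in level by Gh_D05G1354 (1.60, adjusted p = 0.0109). The pyruvate dehydrogenase complex had 2 of 19 genes higher and 3 lower, and the lactate and malate dehydrogenase family 5 of 16 higher and 4 lower. Of 6 phosphoglycerate kinases 3 were higher and 0 lower, of 4 acetyl-CoA synthetases 0 were higher and 1 lower, and of 39 other alcohol dehydrogenases 5 were higher and 9 lower. With library totals alone the alanine aminotransferases had 3 higher and 2 lower, the pyruvate dehydrogenase complex 0 and 8, the lactate and malate family 4 and 5, the phosphoglycerate kinases 3 and 1, the acetyl-CoA synthetases 0 and 2 and the other alcohol dehydrogenases 3 and 16. In SAS roots, on the TMM scale, 1 alanine aminotransferase was higher and 1 lower, the pyruvate dehydrogenase complex had 3 and 4, the lactate and malate family 8 and 5, the phosphoglycerate kinases 0 and 0, the acetyl-CoA synthetases 1 and 2 and the other alcohol dehydrogenases 11 and 11. With library totals alone these 6 lists had, in the same order, 0 and 2, 3 and 8, 5 and 6, 0 and 3, 1 and 2, and 7 and 18.

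Lists around acetaldehyde and low oxygen were also described in leaves, where 27.2% of all genes were called higher and 26.0% lower in SAS, and 11.5% and 9.21% in AS. Aldehyde dehydrogenase 2B7 (Gh_A07G2011), of a family that oxidises aldehydes, averaged 144 FPKM in SAS leaves, 65.2 FPKM in AS leaves and 16.6 FPKM in CK leaves, with log2 changes of 3.10 (adjusted p = 4.49e-05) for SAS and 1.90 (adjusted p = 0.00194) for AS. Over that list, 16 of 48 were higher and 11 lower in SAS leaves, close to those shares. Of the hypoxia-responsive family, named for low-oxygen induction in Arabidopsis, 5 of 8 were higher and 0 lower in SAS leaves and 4 of 8 were higher and 0 lower in AS leaves. Hemoglobin 1 genes Gh_A04G1100 and Gh_D04G1708, of a class that binds oxygen and removes nitric oxide, rose in SAS leaves by 4.07 (adjusted p = 0.00389) and 4.31 (adjusted p = 0.000866), to 36.5 ± 28.2 and 38.8 ± 30.7 FPKM (SD, n = 3). Over all haemoglobins, 2 of 5 were higher there and 2 lower. Of 12 group VII ethylene response factors, the low-oxygen regulators of Arabidopsis, 5 were higher and 2 lower in SAS leaves. Of the plant cysteine oxidase family, 0 of 8 were higher and 2 were lower there.

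In roots the same lists gave other counts. Of all genes, 28.6% were called higher and 28.3% lower in SAS roots, and 21.0% and 17.0% in AS roots. With library totals alone these shares were 18.7% and 46.6% in SAS and 12.3% and 38.2% in AS. Of the hypoxia-responsive family, 2 of 11 were higher and 5 lower in SAS roots (median log2 change -0.36), and 4 of 11 were higher and 0 lower in AS roots (median 0.41), which became 2 and 6 for SAS and 2 and 2 for AS with library totals alone. The plant cysteine oxidase family had 0 of 13 higher and 4 lower in SAS roots and 3 of 13 higher and 0 lower in AS roots, against 0 and 8 and 2 and 4 with library totals alone. Of 5 haemoglobins 1 was higher and 0 lower in SAS roots, and 2 were higher and 2 lower in AS roots. With library totals alone they had 0 and 1 in SAS and 2 and 2 in AS. The group VII factors had 3 of 12 higher and 4 lower in SAS roots and 4 higher and 3 lower in AS roots, and with library totals alone 0 and 5 in SAS and 2 and 4 in AS. Among aldehyde dehydrogenases 13 of 38 were higher and 11 lower in SAS roots, and 7 were higher and 5 lower in AS roots, and with library totals alone 9 and 17 in SAS and 5 and 15 in AS.

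The genes whose levels ran most like 3 of the members were found by Pearson correlation of log2(FPKM + 1) over the 18 libraries, which share tissue, group and depth. The member Gh_A11G0521 was the nearest to Gh_D11G0605 (r = 0.981), and among genes that are no members the nearest were the flavin-dependent monooxygenase 1 gene Gh_D04G1677 (r = 0.980), the pfkB-like carbohydrate kinase Gh_A10G1235 (0.979) and the pectinesterase Gh_D11G0329 (0.979). Gh_A01G1605 was most like the member Gh_D01G1853 (0.977), and among genes that are no members the tetratricopeptide repeat genes Gh_D07G1560 (0.899) and Gh_A07G1464 (0.896) and the phytocystatin 2 gene Gh_D02G0206 (0.852), which averaged 26.0 FPKM in AS leaves. Its correlation with Gh_D11G0605 was -0.15. Among genes that are no members, Gh_D08G0005 was most like Gh_D02G2135 (ribonuclease H-like, 0.992), Gh_A07G1762 (no description, 0.990) and Gh_A05G3946 (RNA polymerase III subunit RPC4, 0.989), of which Gh_D02G2135 averaged 33.1 FPKM in SAS roots, 3.21 FPKM in AS roots and 0.269 FPKM in CK roots.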

How the data were processed

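The authors deposited 1 table with whole-number read counts per gene, not normalized, and FPKM values per gene and library, per the file headers. HISAT and StringTie are named in the submitters' processing notes without versions, and no source names the genome build. Values with 0 counts (302270) are listed at 0.0001 FPKM. Among counts of 1 to 20, 56.1% to 59.8% per library were even, so counting error may exceed that of independent fragments. Of the gene identifiers 0 matched the 99454 genes of the reference table, so no sequence is printed.

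Genes with at least 1 FPKM in at least 3 libraries of a tissue were tested on the deposited counts with edgeR 4.0.16 (R 4.3.3): quasi-likelihood test, TMM, two-sided, Benjamini-Hochberg over all genes tested, called at adjusted p under 0.05. Each tissue's 9 libraries were fitted together. Root and leaf responses were compared over 18 libraries, with the filter met in each tissue. SE is the log2 change over the root of F. Alternatives were DESeq2 1.42.0, limma 3.58.1 on log2(FPKM + 1) or log2(FPKM + 0.1), other scalings and filters, a replicate block and each library left out. The edgeR script was tested on simulated counts.

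Members and gene lists were chosen with earlier results of these data known. All members may be named, and values per library are given where a comparison turns on them. Of each pathway list, genes may be named only from the 4 of highest mean FPKM. The correlations name 3 genes per known member. Replicate numbers did not pair libraries: same-numbered libraries correlated at -0.18 to 0.17 in their deviations from group means. No 2 libraries of a group agreed within sampling noise (chi-square per degree of freedom at least 11.2).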

Additional observations from a re-analysis of the deposited data

Results flagged for a closer look

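The response to a treatment differed between roots and leaves for 12 values in 9 members, by edgeR's interaction test with Benjamini-Hochberg adjustment over all 35697 genes tested. They are 7 of 13 members for AS, where 35.2% of all genes were called, and 5 of 15 for SAS, where 48.7% were. For SAS, members were thus called less often than all genes. Each value is the log2 change against CK in roots minus that in leaves. For AS, Gh_A05G1317 gave 1.41 (adjusted p = 0.0268), Gh_D05G1486 1.16 (0.0453), Gh_A09G2428 1.69 (0.00860), Gh_D09G1575 1.76 (0.00970), Gh_A11G0521 2.45 (0.00289), Gh_D02G0732 1.37 (0.0489) and Gh_A11G1539 -1.11 (0.00702). For SAS, Gh_A02G0689 gave -2.81 (0.00332), Gh_D02G0733 -2.39 (0.0146), Gh_A09G2428 1.18 (0.0387), Gh_D09G1575 1.52 (0.0145) and Gh_A11G1539 -0.99 (0.00909).

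Several calls rested on single libraries. That of Gh_D02G0733 became -1.07 (adjusted p = 0.0539) without SAS leaf library 2. For AS, Gh_A05G1317 became 1.20 (0.0684) without AS root library 2 and lost its call without CK root library 2 or library 1 or 3 of the CK or AS leaves. Gh_D02G0732 became 1.01 (0.154) without CK leaf library 3 and lost its call when any 1 of 11 of the 18 libraries was left out, and in 6 of 7 other settings; Gh_D05G1486 became 0.95 (0.115) without AS root library 2 and lost its call without any 1 of 8 libraries. For SAS, Gh_A09G2428 became 0.76 (0.132) without SAS root library 3 and lost its call without any 1 of 7. With library totals as the only scaling, the AS calls of Gh_A05G1317 (0.80, adjusted p = 0.131), Gh_D05G1486 (0.56, 0.276), Gh_A09G2428 (1.08, 0.0527), Gh_D09G1575 (1.14, 0.0596) and Gh_D02G0732 (0.76, 0.199) were lost, and so were the SAS calls of Gh_A09G2428 (0.46, 0.377) and Gh_D09G1575 (0.79, 0.160).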

How the results depend on the processing

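The 153 tested member values were recomputed under 3123 single-value alternatives. Of these, 2821 kept their direction and their side of the threshold, 156 lost a call, 77 gained one and 69 changed sign, and 0 of the sign changes passed the threshold in either fit. Depth was not varied, and counts of 3 per library bound what a count of 0 allows. The number of members called in the AS response was 7, against 4 when libraries were scaled by totals alone and 2 when genes needed 5 FPKM. Those 2, Gh_A05G1317 and Gh_A11G1539, kept their calls. The other members called were below that filter in leaves and were not tested under it. Over all genes, 12565 of 35697 were called in that response, 17763 with totals alone, and 8592 of 20021 with the 5 FPKM filter. In the SAS response the number was 5, and 9 with limma on log2(FPKM + 1) and 8 on log2(FPKM + 0.1). Calls over all genes rose as well, from 17400 of 35697 to 22852 and 22971 with the same 2 limma settings. The cause of the changes with scaling and with limma was not tested.

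With 1 library left out, members called ranged from 6 to 12 for AS against CK in roots, 8 to 10 for SAS against CK in roots, 7 to 11 for SAS against AS in roots, 2 to 3 for AS against CK in leaves, 7 to 10 for SAS against CK in leaves, 5 to 10 for SAS against AS in leaves, 4 to 8 for the AS response, 4 to 5 for the SAS response and 18 to 19 for CK roots against CK leaves. With a replicate block the counts in the same order were 10, 8, 10, 3, 9, 8, 5, 4 and 18. Over all genes the block gave 13039, 21070 and 13930 of 39584 in roots and 7141, 22307 and 15858 of 44761 in leaves. For the 2 responses it gave 11859 and 16764 of 35697, and for CK roots against CK leaves 31760 of 48954. Calls over all genes varied too when 1 library was left out. For AS against CK they ranged from 10645 to 15933 of 39584 genes in roots and from 4520 to 11756 of 44761 in leaves. SAS against CK gave 19792 to 23127 in roots and 20085 to 24354 in leaves, and SAS against AS 11336 to 15681 and 13365 to 19186. The AS response gave 10457 to 13634 of 35697, the SAS response 15714 to 18106, and CK roots against CK leaves 29731 to 33165 of 48954.

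In AS against CK roots, library totals alone turned Gh_A02G0689 to -0.34 and Gh_D02G0733 to -0.040, and limma gave -0.35 and -0.051 with either pseudocount. In SAS against CK roots, library totals turned Gh_A05G1317 to -0.41, Gh_D05G1486 to -0.20 and Gh_Sca139822G01 to -0.18, and limma gave -0.43, -0.18 and -0.16 (-0.17 with 0.1). In AS against CK leaves, library totals turned Gh_A05G1317 to 0.0026 and Gh_A09G2428 to 0.030. Limma with 1 and with 0.1 turned Gh_A09G2428 to 0.023 and 0.033, Gh_D02G0730 to 0.026 and 0.34 and Gh_D05G1486 to 0.015 and 0.032, and with 0.1 turned Gh_A02G0682 to 0.43. In the AS response, Gh_A02G0689 was -0.25 with library totals and -0.26 with limma, and limma with 0.1 gave -0.34 for Gh_A02G0682 and -0.18 for Gh_D02G0730. In the SAS response Gh_D02G0732 was -0.59, -0.79 and -0.72 with library totals and limma with 1 and 0.1. Limma gave Gh_D01G1853 -0.24 and -0.75 between CK roots and CK leaves.

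Leaving out 1 library changed the sign of further values. In AS against CK roots Gh_A01G1605 ranged from -4.04 to 1.08, Gh_D01G1853 from -4.83 to 0.63, Gh_A02G0689 from -0.026 to 0.24 and Gh_D11G3493 from -0.18 to 0.0049. In SAS against CK roots Gh_A05G1317 ranged from -0.018 to 0.30 and Gh_A11G1539 from -0.21 to 0.11, and against AS roots Gh_D01G1853 ranged from -1.96 to 0.94 and Gh_D09G1575 from -0.41 to 0.22. In AS against CK leaves Gh_A02G0689 ranged from -0.43 to 0.020, Gh_A05G1317 from -0.21 to 0.025, Gh_A09G2428 from -0.14 to 0.10 and Gh_D05G1486 from -0.27 to 0.10. In SAS against CK leaves Gh_A02G0682 ranged from -0.31 to 0.98, Gh_D02G0732 from -0.51 to 0.19 and Gh_D09G1575 from -0.15 to 0.092, and against AS leaves Gh_D02G0732 ranged from -0.14 to 0.52 and Gh_D13G0167 from -0.14 to 0.061. In the SAS response Gh_A01G1605 ranged from -3.34 to 0.75, Gh_D01G1853 from -2.29 to 1.39, Gh_D02G0732 from -0.25 to 0.43 and Gh_D13G0167 from -0.89 to 0.21. Between CK roots and CK leaves Gh_A01G1605 ranged from -0.88 to 3.02, Gh_D01G1853 from -1.75 to 1.91 and Gh_A11G1539 from -0.28 to 0.0015.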
